A study of Mus musculus with 8 samples.

Results

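The genes described here are 36 genes of the integrated stress response, out of 54232 genes counted in each library. They were chosen by name as Atf4, its partners and its known targets, and were grouped into 11 regulators, 8 genes of serine, asparagine and one-carbon synthesis, 5 amino acid transporters, 9 genes of tRNA charging and tRNA export, and 3 other targets. The rule that names them uses no measured value, although earlier results of these data were known when they were chosen. RNA was sequenced from mouse E14 embryonic stem cells, a line of strain 12910la as the labels spell it, with 2 libraries in each of 4 groups: cells labelled Ssrp1 KO and their controls, and cells labelled Usp7 KD and their controls. Ssrp1 was targeted with Cas9 and a guide RNA. For Usp7, an shRNA in a pSuper puro plasmid was used, and the protocol names 1000 ng of plasmid and, after 24 h, 1 ug/ml puromycin for 3 days. All 4 groups grew on gelatin with 15% fetal bovine serum, 10 ng/ml of the cytokine LIF, GlutaMAX and added nonessential amino acids, so the medium supplied glutamine, serine and asparagine in every group. The labels do not say how many clones the Ssrp1 KO libraries come from, whether their controls went through editing, or which plasmid the Usp7 controls received. Whether replicates were separate cultures is not said, so each p-value reflects the scatter of these libraries, which may be technical.

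The integrated stress response begins when kinases that sense amino acid shortage, unfolded protein, heme deficiency or viral RNA phosphorylate the translation factor eIF2. General translation then drops, while the mRNA of the transcription factor Atf4 is translated more. Atf4 binds DNA with C/EBP partners and turns on genes that make, import and charge amino acids, along with genes that feed back on the response, such as Trib3 and Ppp1r15a. Atf4 is largely set by translation, so its mRNA level is not a measure of its protein. Ssrp1 is a subunit of FACT, a histone chaperone that takes nucleosomes apart and rebuilds them. Usp7 is a deubiquitinase known for its action on Mdm2 and p53.

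Atf4 and its C/EBP partners bind a composite element whose letters are TGATGNAA, here called CARE letters. They are shown because this is the sequence feature by which many of these genes are known to be linked. In RefSeq promoter windows of GRCm38.p6, running from 250 bases before to 50 bases after a start, 31 of the 36 genes had a window, and Aldh1l2, Slc7a5, Wars, Cars and Nars had none. On either strand, 11 of the 31 genes (35.5%) held the letters, against 1219 of all 27025 genes with a window (4.51%). The shared motif is a description of these genes and does not show that a factor was bound. The lines below give 30 bases around a match in 7 of the genes, 5′ to 3′ on the gene's strand, with the matched letters in capitals.
Chac1: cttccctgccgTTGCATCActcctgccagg
Pck2: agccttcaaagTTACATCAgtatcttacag
Trib3: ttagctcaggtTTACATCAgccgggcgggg
Nupr1: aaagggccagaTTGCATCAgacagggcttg
Asns: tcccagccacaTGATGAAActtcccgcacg
Yars: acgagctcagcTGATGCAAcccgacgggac
Slc7a11: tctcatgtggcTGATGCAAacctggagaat

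The capitals of Chac1 and Nupr1 were the same 8 letters, TTGCATCA, and those of Pck2 and Trib3 were both TTACATCA. All 4 are the motif read on the opposite strand, while Asns, Yars and the Slc7a11 line hold it on the gene's own strand. The stretch of Chac1 lies at chr2:119351038-119351067 on the plus strand, and its match begins 193 bases before the start. The stretch of Pck2 lies at chr14:55540152-55540181 on the plus strand, with the match 103 bases before the start. The stretch of Trib3 lies at chr2:152344028-152344057 on the minus strand. Its match is at base 15 counted from the RefSeq start, and it lies upstream of the gene coordinates given below for Trib3. On the minus strand, Nupr1 was read from chr7:126625562-126625591, Asns from chr6:7693214-7693243 and Slc7a11 from chr3:50443661-50443690. On the plus strand, Yars was read from chr4:129189895-129189924. Slc7a11 had another match, and Atf3, Gars and Vldlr were among the genes not shown that also held the letters. The letters were present in 3 of the 7 genes that passed the test in Usp7 KD cells (42.9%) and in 8 of the other 24 with a window (33.3%). Of the 4 genes of those 7 with no match, Phgdh, Psat1 and Psph encode the enzymes of serine synthesis and Sars encodes seryl-tRNA synthetase; no match says only that these letters are not in this window.

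The whole Chac1 window is shown as well, because Chac1 had the largest log2 change of the 36 genes in Usp7 KD cells. It covers chr2:119350992-119351291 on the plus strand, with the CARE letters in capitals.
Chac1 promoter: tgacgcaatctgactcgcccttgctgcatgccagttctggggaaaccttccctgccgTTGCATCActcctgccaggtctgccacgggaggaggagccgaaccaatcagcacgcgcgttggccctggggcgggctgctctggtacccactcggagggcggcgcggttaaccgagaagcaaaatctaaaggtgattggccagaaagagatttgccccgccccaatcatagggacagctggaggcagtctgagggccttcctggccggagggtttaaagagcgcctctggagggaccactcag

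Libraries held 15879056 to 18361130 counts. Usp7 stood at 117 and 128 normalised CPM in Usp7 KD cells, against 386 and 381 in their controls (log2 change -1.64, SE 0.19, edgeR adjusted p = 0.0012). Normalised CPM are counts per 1000000 counts of a library, scaled by edgeR's TMM factors within each experiment. Ssrp1 stood at 399.6 and 119.7 normalised CPM in the libraries labelled Ssrp1 KO, against 423 and 460.0 in their controls (log2 change -0.77, SE 0.45, adjusted p = 0.41). The first of them kept the transcript near the control level, so the word KO below stands for the label. Stem cell markers were abundant in all 8 libraries. Of the 9, edgeR called 0 in either experiment, and DESeq2 called 0 in the Ssrp1 and 1 in the Usp7 experiment. An unadjusted p under 0.05 was reached by 0 in the Ssrp1 and 4 (44.4%) in the Usp7 experiment, against 18.2% and 16.7% of all genes tested. Log2 changes were negative for 6 of 9 in Ssrp1 KO libraries and 8 of 9 in Usp7 KD cells. Their summed levels were 84.9% and 78.25% of the control mean, in that order. Summed over 7 listed genes, 2-cell-like markers reached 366 and 933 normalised CPM in Ssrp1 KO libraries against 36.8 and 105 in controls, with 6 of 6 tested called higher, and 21.3 and 18.01 in Usp7 KD cells against 3.18 and 3.29 in controls, with 3 of 4 called higher. Summed primitive endoderm markers were 291 and 352 in Ssrp1 KO libraries against 174 and 156 in controls, and Sparc made up most of each sum. Of these markers, 1 of 5 was called higher by edgeR and 2 by DESeq2. All 5 had an unadjusted p under 0.05 and a positive log2 change, with a median of 2.69. In Usp7 KD cells the summed markers were 290 and 285 against 176 and 159 in controls. None of the 4 tested was called by edgeR, 1 was called by DESeq2 and 3 had an unadjusted p under 0.05. Of 7 fibroblast markers, Dcn, Lum and Postn held 0 to 5 counts in every library, while Thy1 held 79 to 583, Col1a1 10 to 114 and Col1a2 2 to 47. The 7 summed to 14.5 and 37.1 normalised CPM in Ssrp1 KO libraries against 18.05 and 19.2 in controls, and to 9.15 and 13.2 in Usp7 KD cells against 14.9 and 17.3 in controls. Of the 3 tested in each experiment, none was called by edgeR or DESeq2, and 0 in the Ssrp1 and 1 in the Usp7 experiment had an unadjusted p under 0.05. The share of counts from mitochondrially encoded genes was 7.31% and 2.81% in Ssrp1 KO libraries against 0.732% and 0.776% in controls. In the Usp7 experiment it was 2.44% and 2.03% in KD cells against 2.23% and 1.67% in controls. The part of these markers and shares in the results below was not tested.

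In Usp7 KD cells, 7 of the 36 genes fell and none rose by edgeR or DESeq2: Chac1, Pck2, Phgdh, Trib3, Psph, Psat1 and Sars (edgeR quasi-likelihood test, adjusted p under 0.05 over 15915 genes). Of all genes tested, 0.628% were called lower and 2.36% higher. The 7 genes stood at 28.7% to 57.3% of their control level. They include all 3 enzymes that make serine from a glycolytic intermediate, the mitochondrial enzyme Pck2, and the synthetase that charges tRNA with serine. The direction reached beyond the 7: 34 of 36 genes had a negative log2 change, with a median of -0.58 against -0.02 over all genes tested. An unadjusted p under 0.05 was reached by 21 genes, 20 of them lower and 1, Sesn2, higher. That is 58.3% of the 36, against 16.7% of all genes tested. In bulk RNA, fewer cells of a type that expresses these genes and less RNA per cell cannot be told apart.

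Both Usp7 KD libraries lay below both controls for 26 of the 36 genes, where 23.4% of all genes tested did so, and above both for 1, Sesn2, where 24.6% of all genes did so. Summed over the 36 genes, the level was 4006 and 4295 normalised CPM in Usp7 KD cells against 5965 and 5728 in controls, which is 71.0% of the control mean. Their share of all counts was 0.404% and 0.448% in KD cells against 0.552% and 0.585% in controls. The number of genes called depended on single libraries. The median log2 change of the 36 genes was -0.67 without KD replicate 2 and -0.49 without KD replicate 1. It was -0.62 without control replicate 1 and -0.54 without control replicate 2. Over all genes tested, the medians of these 4 fits lay between -0.024 and 0.025. DESeq2 called 12 of the 36 genes, where it called 697 of all genes tested, 208 of them lower. The 12 were the 7 and Asns, Nars, Nupr1, Shmt2 and Yars. A GC and length correction gave 13 calls, against 831 over all genes, 224 of them lower. Only 1 gene, Pck2, was called without a filter on low counts, against 100 over all genes. The same gene alone was called in a joint fit of all 8 libraries, against 78 over all genes. In each of these settings the median log2 change of the 36 genes lay between -0.67 and -0.49.

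**Figure D1:**
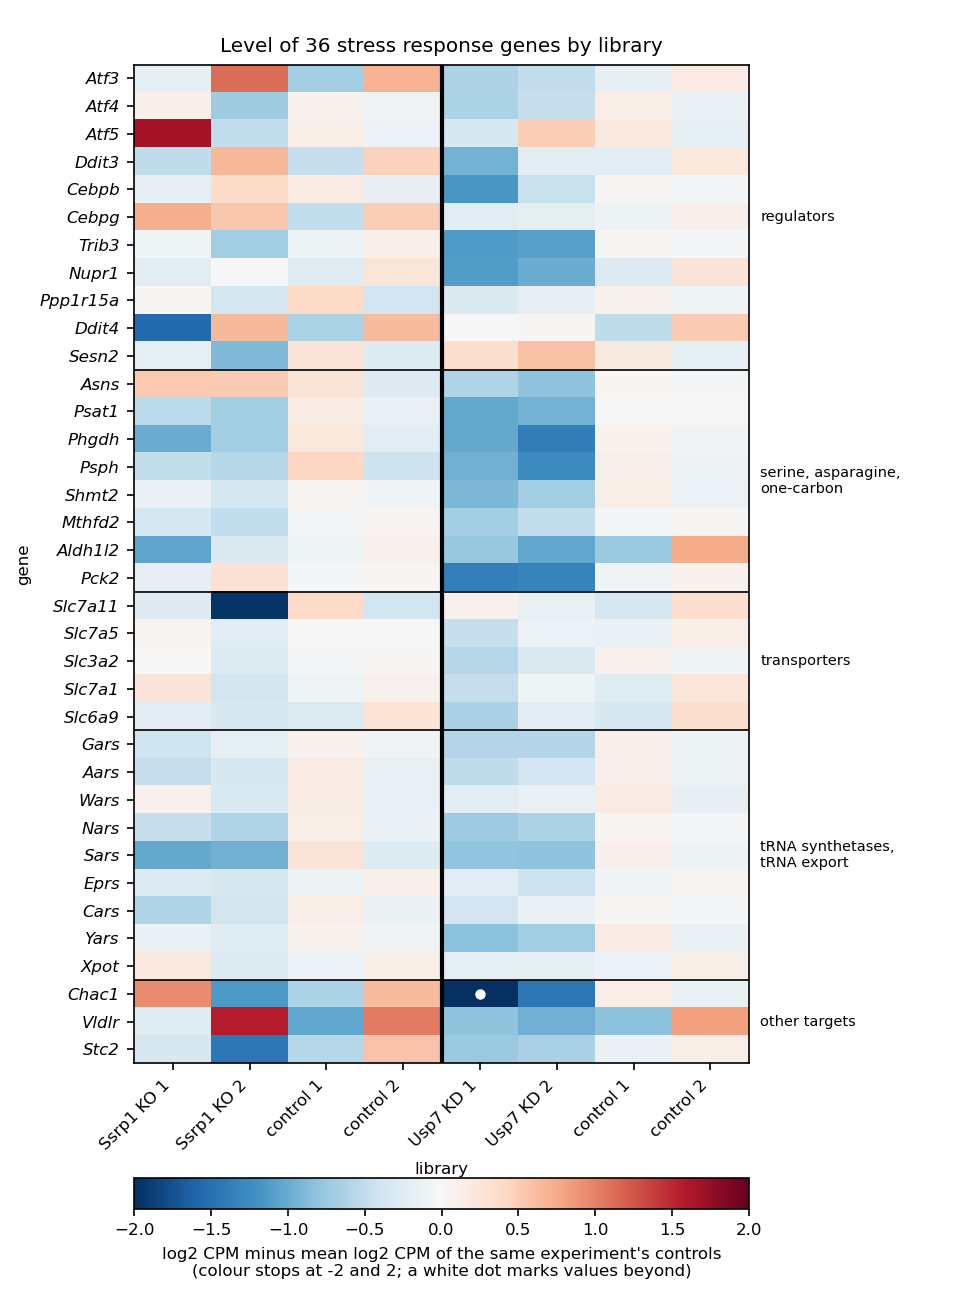
Colour gives the log2 CPM of each of the 36 genes (rows, by group) in each library (columns), minus the mean log2 CPM of the 2 controls of the same experiment; the colour stops at -2 and 2 and a white dot marks a value beyond. Both Usp7 KD columns are blue through the synthesis and tRNA rows, and the Ssrp1 KO columns differ from each other at Atf5, Ddit4, Slc7a11, Chac1 and Vldlr.

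Among the 11 regulators, 1 fell in Usp7 KD cells and none rose. Trib3 (ENSMUSG00000032715, chr2:152337422-152344032, mm10), a pseudokinase induced by Atf4 that restrains it in turn, had 23.7 and 24.4 normalised CPM in KD cells against 52.7 and 51.5 in controls. The replicates of each group lay close together and the groups were far apart (log2 change -1.11, SE 0.19, edgeR adjusted p = 0.012). Atf4 itself (chr15:80255184-80257541) had 234 and 264 normalised CPM in KD cells against 401 and 331 in controls. The groups did not overlap, but the change of -0.56 (SE 0.20) missed the threshold (adjusted p = 0.19). Nupr1, a small chromatin protein of the stress response, had 7.37 and 8.07 normalised CPM in KD cells against 13.6 and 19.3 in controls, also without overlap (log2 change -1.09, adjusted p = 0.053).

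Ddit3 and Ppp1r15a gave no call in Usp7 KD cells. Ddit3, the gene of the pro-apoptotic factor CHOP, had 10.1 and 16.9 normalised CPM in Usp7 KD cells against 16.8 and 22.7 in controls, and the groups overlapped narrowly (log2 change -0.55, SE 0.28, adjusted p = 0.37). Ppp1r15a, which brings the phosphatase that reverses eIF2 phosphorylation and is also called Gadd34, had 54.5 and 59.4 normalised CPM in KD cells against 70.5 and 62.4 in controls. Its groups did not overlap, though the log2 change was only -0.22 (SE 0.18, adjusted p = 0.59). Sesn2, which signals leucine shortage to mTORC1 and is a target of both Atf4 and p53, had 232 and 275 normalised CPM in KD cells against 208 and 161 in controls. It was the 1 gene of the 36 higher in both KD libraries, and its log2 change of 0.46 did not pass the test (SE 0.20, adjusted p = 0.29).

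The other 5 regulators had log2 changes from -0.77 (Cebpb) to 0.13 (Atf5) in Usp7 KD cells, and none passed. Atf5, a relative of Atf4 with similar translational control, had 24.0 and 42.3 normalised CPM in KD cells against 34.4 and 26.0 in controls, so the groups overlapped. Ddit4, an inhibitor of mTORC1, had 127 and 130 normalised CPM in KD cells, between the controls at 89.2 and 181. Atf3 was at 2.00 and 2.20 normalised CPM in KD cells against 2.77 and 3.52 in controls, which is too low for a firm reading. The median over the 11 regulators was -0.55.

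The synthesis genes had the lowest summed level relative to controls of the 4 named groups with 5 or more genes. All 8 lay lower in both Usp7 KD libraries than in both controls, all 8 had an unadjusted p under 0.05, and 4 passed the test over all genes. Their summed level was 760 and 759 normalised CPM in KD cells against 1440 and 1347 in controls, or 54.5% of the control mean, and the median log2 change was -1.05. Phgdh (ENSMUSG00000053398, chr3:98313170-98339990), which commits a glycolytic intermediate to serine synthesis, had 89.4 and 69.9 normalised CPM in KD cells against 191 and 174 in controls. This is a 2.29-fold lower level (log2 change -1.20, SE 0.20, edgeR adjusted p = 0.010). Pseudogenes share up to 50% of the 50-base words sampled from Phgdh exons, but each of those counted held at most 9 counts in any library.

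Psat1 (ENSMUSG00000024640, chr19:15904678-15947337), the aminotransferase of the next step, had 141 and 149 normalised CPM in Usp7 KD cells against 286 and 291 in controls. Psph (ENSMUSG00000029446, chr5:129765558-129787449), the phosphatase that releases serine, had 23.9 and 19.2 normalised CPM in KD cells against 49.9 and 43.2 in controls. Psat1 stood at 50.4% and Psph at 46.3% of the control level, beside 43.7% for Phgdh, with log2 changes of -0.99 for Psat1 (SE 0.18, edgeR adjusted p = 0.017) and -1.11 for Psph (SE 0.21, adjusted p = 0.018). Pck2 (ENSMUSG00000040618, chr14:55540266-55551242), the mitochondrial enzyme that makes phosphoenolpyruvate, had 20.8 and 21.3 normalised CPM in KD cells against 51.4 and 56.4 in controls. It had the lowest adjusted p of the 36 genes (log2 change -1.36, SE 0.19, adjusted p = 0.0042).

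Asns (chr6:7675169-7693254), asparagine synthetase and a standard readout of Atf4 activity, had 203 and 177 normalised CPM in Usp7 KD cells against 316 and 299.9 in controls. The groups were apart by more than the spread within either, and the change of -0.70 (SE 0.19) missed the threshold (adjusted p = 0.082). Shmt2, which moves a carbon unit off serine in the mitochondrion, had 237 and 274 normalised CPM in KD cells against 478 and 409 in controls (log2 change -0.80, adjusted p = 0.062). Mthfd2, the next mitochondrial one-carbon enzyme, had a change of -0.59 (adjusted p = 0.13). Aldh1l2 had 2.49 and 2.03 normalised CPM in KD cells against 2.53 and 7.28 in controls, and its change of -1.11 rests on control replicate 2 (adjusted p = 0.27).

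**Figure D2:**
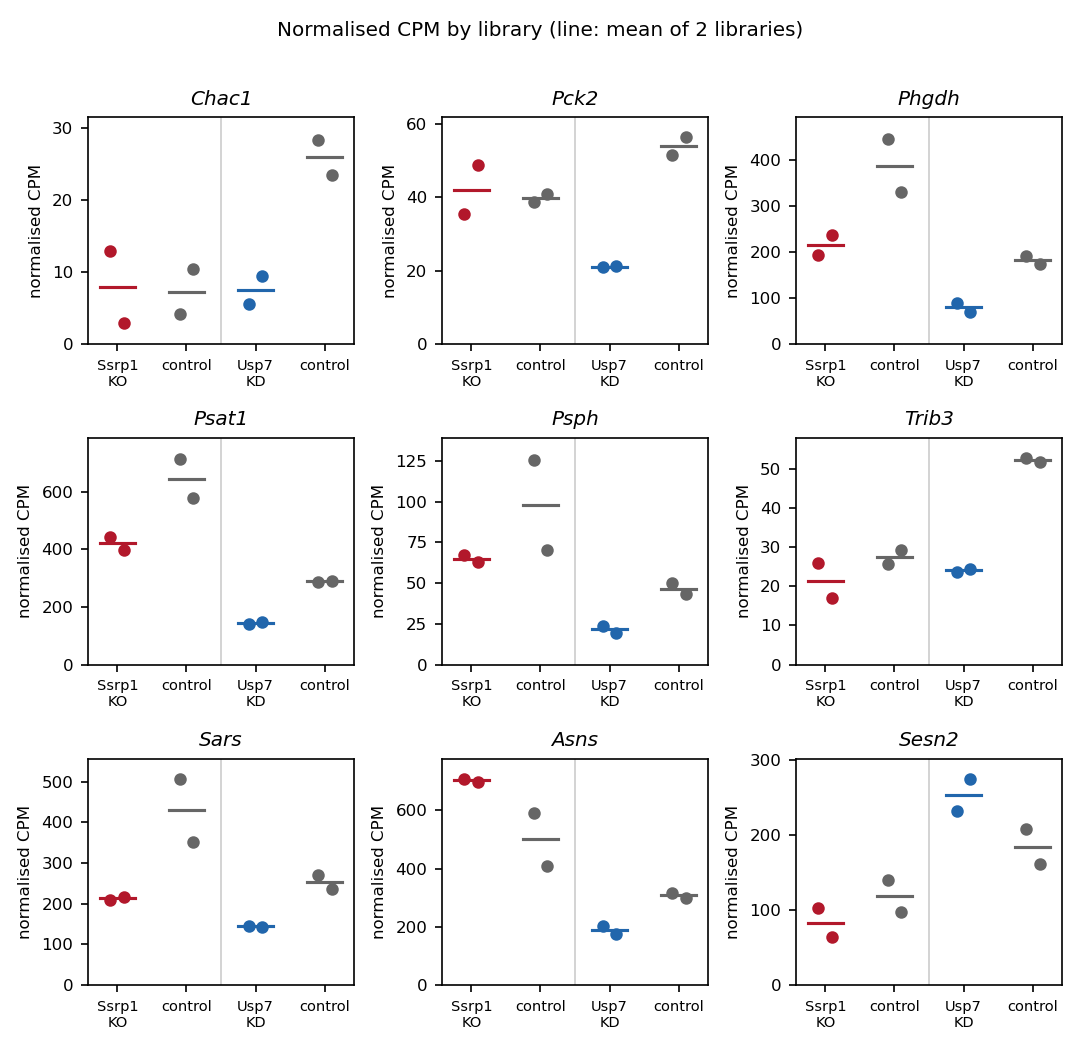
Normalised CPM (vertical axis, from 0) of 9 genes in each library, with a line at the mean of 2 libraries; red is Ssrp1 KO, blue is Usp7 KD, and grey is the control of the same experiment. Chac1, Pck2, Trib3 and Asns lie below both controls in Usp7 KD cells, while in Ssrp1 KO libraries the first 3 overlap with their controls and Asns lies above them; Phgdh, Psat1, Psph and Sars lie lower in both.

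None of the 5 transporters passed the test in Usp7 KD cells with edgeR or DESeq2, and none had an unadjusted p under 0.05. Their log2 changes were all negative, from -0.47 to -0.07, with a median of -0.29. Slc6a9, a glycine transporter, had the largest of them with 4.10 and 5.60 normalised CPM in KD cells against 5.18 and 8.22 in controls, where the groups overlapped (SE 0.34, adjusted p = 0.54). Slc3a2, the heavy chain shared by several exchangers, was the only one of the 5 whose groups did not overlap, with 211 and 256 normalised CPM in KD cells against 333 and 293 in controls (log2 change -0.42, adjusted p = 0.31). Its partner Slc7a5, a leucine importer, had a change of -0.28, and Slc7a1, an importer of arginine and lysine, -0.29. Slc7a11, the cystine importer, was close to the floor at 1.77 and 1.48 normalised CPM in KD cells and 1.30 and 2.11 in controls.

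All 9 genes of tRNA charging and export had a negative log2 change in Usp7 KD cells, 8 of them without overlap between groups, and 1 passed the test. Sars (ENSMUSG00000068739, chr3:108424865-108445209), which charges serine onto its tRNAs, had 146 and 144 normalised CPM in KD cells against 269 and 236 in controls. The level was 57.3% of control (log2 change -0.80, SE 0.19, edgeR adjusted p = 0.045). Yars, for tyrosine, followed at -0.77 (adjusted p = 0.062) and Nars, for asparagine, at -0.68 (adjusted p = 0.088), and neither passed. Gars, for glycine, was at -0.59 (adjusted p = 0.14) and Aars, for alanine, at -0.45 (adjusted p = 0.29). The smallest log2 changes belonged to Xpot, which exports tRNA from the nucleus, at -0.19, Wars, for tryptophan, at -0.20, and Cars, for cysteine, at -0.25. The summed level of the 9 genes was 1939 and 1978 normalised CPM in KD cells against 2809 and 2617 in controls, 72.2% of the control mean.

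Chac1 (ENSMUSG00000027313, chr2:119351229-119354381), an enzyme that breaks down glutathione and is induced through Atf4, had 5.49 and 9.39 normalised CPM in Usp7 KD cells against 28.4 and 23.5 in controls. It fell 3.48-fold (log2 change -1.80, SE 0.28, edgeR adjusted p = 0.0084), while its KD replicates differed by 1.71-fold. Stc2, a secreted glycoprotein of the stress response, had 17.3 and 18.5 normalised CPM in KD cells against 26.3 and 31.9 in controls, without overlap (log2 change -0.70, adjusted p = 0.12). Vldlr, a lipoprotein receptor, had 3.99 and 3.57 normalised CPM in KD cells against 3.95 and 12.5 in controls, so that its change of -1.12 rests on 1 control library (adjusted p = 0.25).

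**Figure D3:**
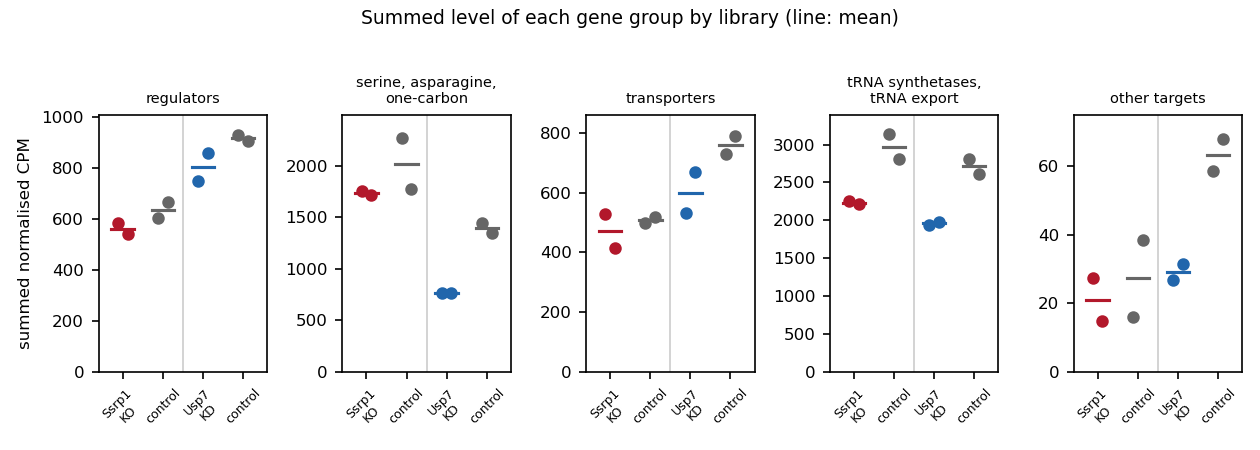
Summed normalised CPM (vertical axis, from 0) of each gene group in each library, with a line at the mean of 2 libraries; red is Ssrp1 KO, blue is Usp7 KD, and grey is the control of the same experiment. The synthesis genes sum to 760 and 759 in Usp7 KD cells and to 1440 and 1347 in their controls, and the tRNA genes lie below both controls in KO and KD libraries alike.

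In the libraries labelled Ssrp1 KO, none of the 36 genes passed the edgeR test over 15757 genes, 2 (Phgdh and Sars, 5.56%) had an unadjusted p under 0.05 against 18.2% of all genes tested, and DESeq2 called 1 (Sars). Of all genes tested, 3.39% were called higher and 0.324% lower. The median log2 change of the 36 genes was -0.22 against 0.03 over all genes, and 27 of 36 were negative. Both Ssrp1 KO libraries lay below both controls for 13 genes, where 22.7% of all genes tested did so, and above both for 2, Asns and Cebpg, where 27.3% of all genes did so. Of those 13 genes, 6 were synthesis genes and 7 were tRNA synthetases, and none was a regulator, a transporter or one of the 3 other targets.

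Sars had 209 and 217 normalised CPM in Ssrp1 KO libraries against 507 and 351 in controls, with no overlap (log2 change -1.01, SE 0.29, edgeR adjusted p = 0.083). Its adjusted p ranged from 0.015 to 0.60 over the alternatives, and it passed the threshold in 4 of 10. Phgdh had 193 and 237 normalised CPM in KO libraries against 447 and 330 in controls, again with no overlap (log2 change -0.85, SE 0.29, adjusted p = 0.13). Psat1 had 442 and 399 normalised CPM in KO libraries against 713 and 576 in controls (log2 change -0.62, SE 0.29, adjusted p = 0.29). Psph, with 67.0 and 63.3 normalised CPM in KO libraries against 126 and 70.2 in controls, had KO replicates close to each other and controls that were 1.79-fold apart (log2 change -0.59, SE 0.32, adjusted p = 0.37). For the serine enzymes and Sars the log2 changes were thus negative, as in Usp7 KD cells, without an edgeR call in the fit of the 4 libraries. A joint fit of all 8 libraries called Phgdh (adjusted p = 0.045) and Sars (adjusted p = 0.022).

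Asns went the other way. It had 708 and 699 normalised CPM in Ssrp1 KO libraries against 592 and 410.0 in controls, and the change of 0.49 did not pass (SE 0.30, adjusted p = 0.44). The tRNA genes summed to 2249 and 2220 normalised CPM in KO libraries against 3134 and 2804 in controls, or 75.3% of the control mean, with a median log2 change of -0.31. The synthesis genes summed to 1753 and 1714 normalised CPM in KO libraries against 2272 and 1770 in controls, where Asns makes up a large part of each sum.

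For several regulators and stress targets the 2 Ssrp1 KO libraries lay far apart. Atf5 had 58.2 and 13.1 normalised CPM in KO libraries against 20.0 and 16.8 in controls, so that 1 library was far above and the other below both controls (log2 change 0.95, SE 0.55, adjusted p = 0.40). Chac1 had 12.9 and 2.91 normalised CPM in KO libraries against 4.20 and 10.4 in controls, and the log2 change was 0.11 (SE 0.68, adjusted p = 0.96). Ddit4 had 41.9 and 193 normalised CPM in KO libraries against 79.6 and 191 in controls. For these 3 genes the KO replicates were 4.45-fold, 4.43-fold and 4.59-fold apart, in that order. Stc2 had 12.9 and 5.87 normalised CPM in KO libraries against 10.8 and 24.1 in controls (log2 change -0.90, SE 0.51, adjusted p = 0.39).

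Atf4 mRNA had 252 and 143 normalised CPM in Ssrp1 KO libraries against 245 and 224 in controls (log2 change -0.25, SE 0.31, adjusted p = 0.74). The library with the lower Ssrp1 transcript, KO replicate 2, was also the one with the lower Atf4 and Trib3, while Ddit3 and Ddit4 were higher in it. With 2 KO libraries, no relation to the Ssrp1 transcript can be read from this order. Ddit3 had 10.3 and 23.2 normalised CPM in KO libraries against 10.6 and 20.1 in controls, which overlap almost fully. Trib3 had 25.9 and 16.9 normalised CPM in KO libraries against 25.7 and 29.3 in controls (log2 change -0.37, adjusted p = 0.63), and Ppp1r15a had 36.3 and 28.2 against 46.7 and 27.5 in controls (log2 change -0.20, adjusted p = 0.82). Slc7a11 had the largest change among transporters, -0.97, on 2.96 and 0.823 normalised CPM in KO libraries against 4.66 and 2.72 in controls (SE 0.70, adjusted p = 0.52). The SEs of the 36 genes ran from 0.26 to 0.81 on the log2 scale, and the change of -1.01 of Sars did not pass, so changes of that size were not reliably detectable at this spread.

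Without KO replicate 1, the library that kept the Ssrp1 transcript, the median log2 change of the 36 genes was -0.40, against 0 over all genes tested. Without KO replicate 2, the median of the 36 genes was -0.25, against -0.03 over all genes tested. Each of these fits rests on 1 KO library.

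**Figure D4:**
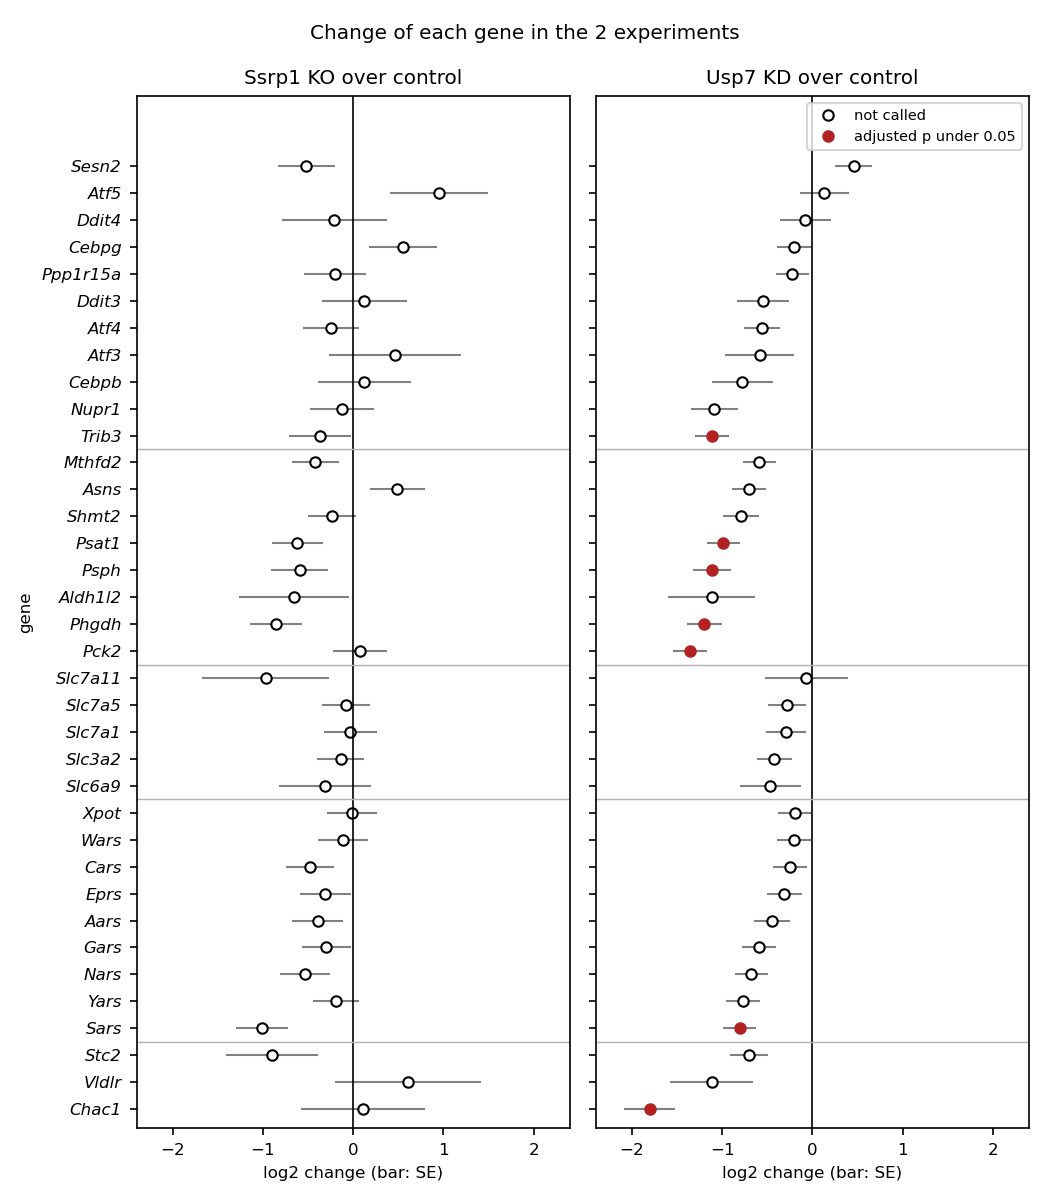
Log2 change over control (horizontal axis) of the 36 genes in Ssrp1 KO libraries (left) and Usp7 KD cells (right), with bars of 1 SE; filled red points have an edgeR adjusted p under 0.05 and open points do not. The 7 filled points are all in the Usp7 panel and all negative, and the bars of the Ssrp1 panel are wider.

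The Ssrp1 KO change minus the Usp7 KD change was tested for each gene with all 8 libraries in 1 model. None of the 36 genes passed over 17052 genes with edgeR, 5 (13.9%) had an unadjusted p under 0.05 against 15.1% of all genes tested, and DESeq2 called 1 (Pck2). Of all genes tested, 0.61% were called higher in this difference and 0.393% lower. So the calls made in Usp7 KD cells are not shown to be particular to that experiment. Without regard to calls, the difference was positive for 28 of the 36 genes and negative for 8. The median difference was 0.249, against 0.005 over all genes tested. The largest differences at an unadjusted p under 0.05 were Chac1 at 1.87 (SE 0.84, adjusted p = 0.33), Pck2 at 1.39 (SE 0.32, adjusted p = 0.075) and Asns at 1.13 (SE 0.34, adjusted p = 0.15). Sesn2 differed the other way, by -1.03 (SE 0.41, adjusted p = 0.26), and Nupr1 by 0.91 (SE 0.41, adjusted p = 0.32). Phgdh, Psat1, Psph and Sars had differences of 0.29, 0.32, 0.46 and -0.26, with SEs of 0.31 to 0.41 and adjusted p-values of 0.66 to 0.77.

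Pck2 shows what such a difference consists of. It had 35.4 and 48.6 normalised CPM in Ssrp1 KO libraries against 38.6 and 40.9 in their controls, where the groups overlapped, and 20.8 and 21.3 in Usp7 KD cells against 51.4 and 56.4 in their controls, where they did not. The difference passed the test in 5 of 13 alternatives and kept its sign in all 13.

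The exon length used for levels per kilobase was the union of all annotated exons of a gene, which can be longer than its transcripts. Genes can therefore be compared with each other only roughly. Levels per kilobase of exon spanned a wide range in Usp7 controls. The highest were Atf4 at 155 normalised CPM per kb, Shmt2 at 143, Asns at 113 and Gars at 106. The lowest was Slc7a11 at 0.122, below Aldh1l2 at 0.654 and Vldlr at 0.814. Within the serine pathway, Phgdh at 73.4 and Psat1 at 67.7 were close, and Psph was lower at 10.8. In Usp7 KD cells these 3 stood at 32.0, 34.2 and 4.97 normalised CPM per kb. No order between Phgdh and Psat1 is read from these values.

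The controls of the 2 experiments also stood at different levels for some of the genes. Asns had 592 and 410.0 normalised CPM in Ssrp1 controls and 316 and 299.9 in Usp7 controls, while Chac1 had 4.20 and 10.4 in Ssrp1 controls and 28.4 and 23.5 in Usp7 controls. Trib3 had 25.7 and 29.3 in Ssrp1 controls and 52.7 and 51.5 in Usp7 controls. The tables were normalised separately, so these levels are set side by side without a test, and the experiments' handling and the cells cannot be told apart.

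Further genes linked to the pathway were read from 6 lists. Of all genes tested in Usp7 KD cells, 0.628% were called lower, 2.36% were called higher and 16.7% had an unadjusted p under 0.05. In Ssrp1 KO libraries these shares were 0.324%, 3.39% and 18.2%. Of 27 tested genes that are also linked to Atf4 or to amino acid supply, 6 fell in Usp7 KD cells (edgeR) and none rose, with a median log2 change of -0.41. Log2 changes were negative for 24 and positive for 3, and 11 (40.7%) had an unadjusted p under 0.05. Slc38a2, 1 of the 11, was higher, at 480 and 601 normalised CPM in KD cells against 360 and 392 in controls. Its log2 change of 0.53 did not pass (SE 0.21, edgeR adjusted p = 0.23). Pycr1, which makes proline, fell by 1.05 on the log2 scale, and Aldh18a1, which starts proline synthesis, fell by 0.95. Cth, the cysteine-forming enzyme of transsulfuration, fell by 1.04, Gpt2, a mitochondrial alanine aminotransferase, by 0.93, Slc1a5, a glutamine transporter, by 0.90, and Vegfa, an angiogenic growth factor, by 1.10. Aldh18a1, for example, had 44.95 and 52.16 normalised CPM in KD cells against 89.07 and 99.03 in controls. In Ssrp1 KO libraries none of the 27 was called by edgeR or DESeq2, 4 (14.8%) had an unadjusted p under 0.05, and the median was -0.35.

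A further list held 11 other cytosolic tRNA synthetases, 3 of which also stand in the list just given. Mars, for methionine, stands only in the list just given and is not among the 11 (log2 change -0.41, SE 0.19, edgeR adjusted p = 0.30 in Usp7 KD cells). None of the 11 was called in Usp7 KD cells by edgeR or DESeq2. All 11 had a negative log2 change, 3 (27.3%) had an unadjusted p under 0.05, and the median was -0.35. The 17 mitochondrial synthetases gave no call with either tool, none had an unadjusted p under 0.05, and their median was nearer 0 at -0.14. In Ssrp1 KO libraries edgeR called none of either list, and DESeq2 called 0 of the cytosolic and 1 of the mitochondrial genes. An unadjusted p under 0.05 was reached by 1 (9.09%) of the cytosolic and 2 (11.8%) of the mitochondrial genes.

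The genes upstream of Atf4, 14 genes of the eIF2 kinases, eIF2, eIF2B and their regulators, gave no edgeR call in either experiment. In Usp7 KD cells 1 (7.14%) had an unadjusted p under 0.05 and DESeq2 called none, with a median of -0.12. In Ssrp1 KO libraries 4 (28.6%) had an unadjusted p under 0.05, DESeq2 called 1 higher and 1 lower, and the median was 0.26. These are mRNA levels and say nothing of kinase activity.

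In Ssrp1 KO libraries, 3 of 17 genes of the unfolded protein response of the endoplasmic reticulum rose, and none fell. These 3 were the only ones with an unadjusted p under 0.05 (17.6%, against 18.2% of all genes tested). Log2 changes were positive for 14 of the 17 and negative for 3, with a median of 0.33. Hspa5, the chaperone BiP, had 644 and 800.0 normalised CPM in KO libraries against 266 and 239 in controls (log2 change 1.51, SE 0.29, edgeR adjusted p = 0.020). Hsp90b1, the chaperone GRP94, rose by 1.33 (adjusted p = 0.031) and Dnajb9, a cochaperone of BiP, by 1.52 (adjusted p = 0.048). The KO libraries were above both controls for Hspa5, in the same libraries whose Ddit3 and Trib3 overlapped with controls. In the Usp7 controls Hspa5 had 751 and 580 normalised CPM, so its level in Ssrp1 controls was the lower of the 2. Hsp90b1 had 582 and 505 in Usp7 controls, against 178 and 216 in Ssrp1 controls. The tables were normalised separately, so these levels are set side by side without a test. In Usp7 KD cells none of the 17 was called by edgeR or DESeq2, 2 (11.8%) had an unadjusted p under 0.05, and the median was 0.06.

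Of 14 tested p53 targets and regulators, 7 rose in Usp7 KD cells and none fell (edgeR), with a median log2 change of 1.04, and the summed level was 2524 and 2883 normalised CPM in KD cells against 1575 and 1494 in controls. Perp, a p53 target in cell death, had 51.9 and 67.9 normalised CPM in KD cells against 12.9 and 11.8 in controls (log2 change 2.28, SE 0.22, edgeR adjusted p = 0.00050). Cdkn1a, the cell cycle inhibitor p21, rose by 1.47, Trp53inp1 by 1.33, Eda2r by 1.23, Ccng1 by 1.18, Mdm2, the ubiquitin ligase for p53, by 1.10 and Zmat3 by 0.97. In Ssrp1 KO libraries edgeR called 1 of 13, Trp53inp1, which rose by 1.70 (adjusted p = 0.016), while DESeq2 called 4 higher. An unadjusted p under 0.05 was reached by 6 (46.2%), against 18.2% of all genes tested, and Bax, 1 of the 6, was lower. Of the 13, 7 had a negative log2 change, and the median was -0.28.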

How the data were processed

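The deposited values are raw counts per gene, with a separate table of 4 libraries for the Ssrp1 and the Usp7 experiment. Cutadapt, HISAT2 and featureCounts were used on mm10, per the submitters' processing notes. For versions, strand mode and reads with several matches, the entry is: not given in the sources used here. Where exons of neighbours overlap (30.2% of the exon bases of Slc6a9, 20.7% of Cebpb, 15.1% of Aars, 14.1% of Aldh1l2, 10.9% of Ddit3, 10.4% of Psph), the counts are uncertain. The 92 spike-in rows were all 0 and were left out, so a change is measured against the remaining genes. Symbols and coordinates came from the GENCODE annotation of GRCm38, and 67 of 54232 identifiers had no symbol. Of the names listed, Gcn1, Mars1 and Dux had no match.

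The 4 libraries of each experiment were fitted separately in edgeR 4.0.16 under R 4.3.3 (filterByExpr, TMM, quasi-likelihood F test), with Benjamini-Hochberg adjustment over all genes tested and calls at an adjusted p under 0.05. All 36 genes passed the filter in each fit. SEs were derived from the log2 change and the F statistic. The difference used a joint fit of 8 libraries. Alternatives were DESeq2 1.42.0, RLE scaling, no filter, the replicate number as a block, a GC and length correction, a joint fit, and leaving out each library. The scripts were tested on simulated data with known changes.

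The members and lists were chosen with earlier results of these data known. Values per library are given for the genes called, for Atf4, Ddit3, Trib3, Chac1, Asns, Phgdh and Ppp1r15a, and for the largest log2 change of each group in each experiment; other genes given by library were chosen after their values were seen. Called genes of the related lists are named.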

Additional observations from a re-analysis of the deposited data

How the results depend on the processing

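With 2 libraries a group, the number of calls moved with nearly every choice, while the direction of the 7 genes called in Usp7 KD cells was kept in all 10 alternatives of that comparison. For Usp7 KD, the 7 calls among the 36 genes became 12 with DESeq2, 1 without a filter, 13 with the GC and length correction, 1 in the joint fit, and 0 to 19 when a library was left out. The 476 calls over all genes became 100 without a filter, 831 with the GC and length correction, 78 in the joint fit and 42 to 3770 with a library left out. The median of the 36 genes lay between -0.67 and -0.486 with a library left out, where Atf5 ranged from -0.333 to 0.483 and Slc7a11 from -0.372 to 0.318.

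For Ssrp1 KO, the count of 0 became 1 with DESeq2, 1 without a filter, 2 in the joint fit and 0 to 2 with a library left out. The 585 calls over all genes became 1109 with DESeq2, 1497 without a filter, 346 with the GC and length correction, 1314 in the joint fit and 20 to 1884 with a library left out. The median of -0.22 became -0.101 with the GC and length correction and -0.403 to -0.248 with a library left out. The GC and length correction turned Ddit3 to -0.05 and Ppp1r15a to 0.005. With a library left out, the ranges crossed 0 for Atf4 (-0.776 to 0.099), Atf5 (-0.556 to 1.657), Ddit3 (-0.586 to 0.631), Ppp1r15a (-0.554 to 0.211), Pck2 (-0.171 to 0.231) and Chac1 (-1.374 to 0.89).

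For the difference, the count of 0 became 1 with DESeq2, 2 without a filter, 1 with the GC and length correction and 0 to 1 with a library left out. The 171 calls over all genes became 673, 945, 142 and 1 to 1109 in that order, and Sars ranged from -0.549 to 0.056. The cause of these shifts was not tested.

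The replicate numbers are shared by the groups, but nothing in the labels pairs the samples. Deviations of same-numbered libraries correlated at 0.184 in the Ssrp1 and 0.144 in the Usp7 experiment, each with only 1 independent deviation per group. With the replicate number as a block, the 36 genes had 15 calls in Usp7 KD, 0 in Ssrp1 KO and 1 in the difference. Over all genes the block gave 1471, 988 and 525 calls, and it turned Chac1 in Ssrp1 KO to -0.095.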
